A study of Homo sapiens with 2 samples.

Results

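The 9 genes described here are parts of type I interferon signalling. The receptor chains are IFNAR1 and IFNAR2, and the receptor-bound kinases are JAK1 and TYK2. The transcription factors are STAT2 and the interferon regulatory factors IRF1, IRF3, IRF7 and IRF9. All 9 were chosen by symbol, through the Entrez identifier of each row, and all were found among 40392 genes. The samples were 2 bulk RNA libraries of KYSE30, an established line of human esophageal squamous cell carcinoma, made from total RNA after removal of ribosomal RNA. Stable transfectants of the pIRES2-EGFP vector gave the mock library (mock cells). Stable transfectants of a vector expressing human RHCG, a membrane transporter of ammonia, gave the RHCG library (RHCG cells). The labels name no interferon or other agent in either group, and they do not say whether the transfectants were clones or pools.

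There was 1 library per group, so no difference below has a replicate check, and each compares these 2 libraries only. Values are RPKM (reads per kilobase, scaled for depth), which take transcript length into account. Levels of different genes are compared on that scale only, because the counting method is not given. The scaling corresponded to about 18900000 reads in mock and about 22100000 in RHCG cells, or 18.9 and 22.1 reads for a transcript of 1 kb at 1 RPKM. RHCG itself was listed at 0 in mock cells and at 413 RPKM in RHCG cells. Of 10 epithelial markers listed for squamous epithelium, 9 were measured and KRT5 was listed at 0 in both libraries. They summed to 886 RPKM in mock and 590 RPKM in RHCG cells. Their log2 ratios (defined below) had a median of 0.11, with 5 above 0 and 4 below. Of those above 0, EPCAM (0.84) and CDH1 (0.14) are not particular to squamous epithelium, so this median does not show that squamous identity was level. The keratins KRT13 (407 and 164 RPKM) and KRT6A (38.8 and 3.51 RPKM) were more than 2-fold lower. All 4 endothelial markers, 7 of 8 leukocyte markers and 4 of 6 fibroblast markers were listed at 0 in both. The remaining leukocyte marker, CD68, was at 15.4 and 8.89 RPKM. The remaining fibroblast markers, COL1A1 and COL3A1, summed to 2.45 RPKM in mock and 1.44 RPKM in RHCG cells. The part of other cell types in the values below was not tested. A listing at 0 sets no bound: the widely expressed genes HSPH1 and GLUL stood at 0 in both libraries too. In bulk RNA, fewer cells of a type and less RNA per cell cannot be told apart.

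As background, IFNAR1 and IFNAR2 bind type I interferons such as interferon beta, and the kinases TYK2 and JAK1 sit on their inner tails. The activated kinases phosphorylate STAT factors, and STAT2 joins IRF9 in the complex ISGF3. ISGF3 binds the interferon-stimulated response element (ISRE) and switches on the genes that limit viral growth. IRF3 and IRF7 stand before the signal: nucleic acid sensors activate them, and they then switch on the interferon genes. IRF1 is itself induced by interferon, through a gamma-activated site (GAS) that STAT factors bind, and acts on antigen presentation genes. Epithelial cells use the same pathway against viruses.

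Both kinds of response element are shown from RefSeq promoter sequence (GRCh38.p14), with the start of transcription to the right of each stretch. The ISRE was searched as GAAANNGAAA and the GAS as TTCNNNGAA, on both strands and in windows from 250 bases before to 50 bases after each start. The GAS letters read the same on both strands, and a match is a description of the letters only. Capitals mark the matches. IRF1 and IRF9 are shown because their windows alone, among those matched for the 9 genes, held a GAS match. ISG15 and IFIT1 are shown as target genes whose windows each held 2 ISRE matches. The stretches run from 150 to 51 bases before the start for IRF1, from 120 to 21 for IRF9, and from 140 to 61 for ISG15 and IFIT1.
IRF1, chr5:132490824-132490923, minus strand: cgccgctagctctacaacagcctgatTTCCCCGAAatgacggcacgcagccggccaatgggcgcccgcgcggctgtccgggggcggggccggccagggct
IRF9, chr14:24161145-24161244, plus strand: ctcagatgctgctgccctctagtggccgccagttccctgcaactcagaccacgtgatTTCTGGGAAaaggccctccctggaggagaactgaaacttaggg
ISG15, chr1:1013357-1013436, plus strand: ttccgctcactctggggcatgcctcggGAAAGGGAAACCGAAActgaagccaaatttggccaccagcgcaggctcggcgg
IFIT1, chr10:89392483-89392562, plus strand: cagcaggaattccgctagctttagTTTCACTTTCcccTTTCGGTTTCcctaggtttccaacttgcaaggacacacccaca

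The 2 ISRE matches of ISG15 overlap, and those of IFIT1 lie apart on the opposite strand. Windows were matched for 6 of the 9 genes (IFNAR1, JAK1, TYK2, STAT2, IRF1 and IRF9), and 0 of the 6 held the ISRE letters. Of 29 interferon-stimulated genes with a window, 22 held them. The GAS letters were held by 10 of these 29 genes and by 2 of the 6 (IRF1 and IRF9). Over all 35116 windows the share was 3.57% for the ISRE and 7.66% for the GAS. Counted by gene, over 27305 genes, the shares were 4.38% and 9.38%.

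None of the 9 signalling genes passed a 2-fold difference between the libraries, while 9 of 25 measured interferon-stimulated genes were lower in RHCG cells. The interferon-stimulated list was drawn up with the lower genes of these libraries already known, so its count is no independent evidence. IFI44 and IFIT1, counted as lower, were listed at 0 in RHCG cells. Differences are given as log2((RHCG + 1)/(mock + 1)) in RPKM, and a value of 1 or more is called higher and of −1 or less lower. By this rule 0 of the 9 signalling genes were higher and 0 of the 9 were lower. Genes listed at 0 count as 1 RPKM here, so IRF7, at 2.06 RPKM in mock cells, could not be called lower. Over all 12857 measured genes (those listed above 0 in at least 1 library), 2.74% were higher and 3.30% lower, so a count of 0 among 9 genes is near the background. The median log2 ratio of the 9 was −0.18, with 2 genes above 0 and 7 below, and that of all measured genes was −0.01. With the shift of neighbouring genes subtracted the median of the 9 was 0.11. Of the 9, JAK1 lay furthest above 0, and STAT2 and IRF3 furthest below. Of all measured genes, 15.0% lay as far from 0 in either direction as JAK1, 9.11% as STAT2 and 21.5% as IRF3.

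**Figure D1:**
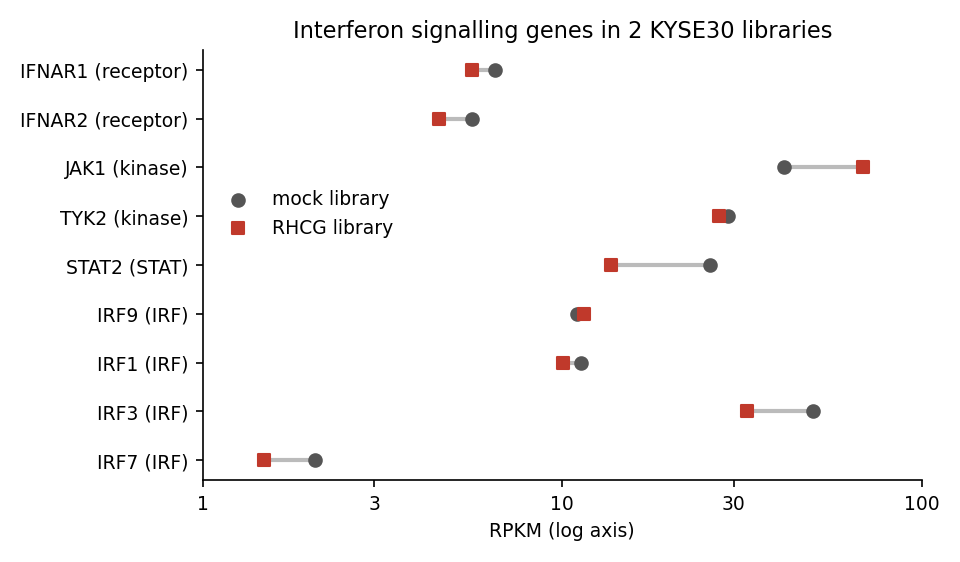
RPKM of the 9 interferon signalling genes on a log axis, with circles for the mock library and squares for the RHCG library, 1 library each. JAK1 was the only gene of the 9 with a wide gap to the right (41.3 and 68.7 RPKM), and STAT2 (25.8 and 13.7 RPKM) and IRF3 (50.0 and 32.6 RPKM) had the widest gaps to the left.

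The 9 levels spanned from IRF7, at 2.06 RPKM in mock and 1.48 RPKM in RHCG cells, to IRF3 at 50.0 RPKM in mock and JAK1 at 68.7 RPKM in RHCG cells. In the mock library the order from the top was IRF3, JAK1, TYK2, STAT2, IRF1, IRF9, IFNAR1, IFNAR2 and IRF7. In the RHCG library JAK1 and IRF3 changed places at the top, as did IRF9 and IRF1 in the middle, and the others held their rank. IRF1 and IRF9 were close in both libraries (11.3 and 11.0 RPKM in mock cells, 10.1 and 11.5 RPKM in RHCG cells), and without replicates their order cannot be told from spread. The 9 values summed to 182 RPKM in mock and 175 RPKM in RHCG cells.

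The receptor chains were at low and similar levels. IFNAR1, the chain that carries TYK2, was at 6.48 RPKM in mock cells and 5.59 in RHCG cells, a log2 ratio of −0.18. IFNAR2, the high-affinity chain that carries JAK1, was at 5.62 and 4.55 RPKM, a log2 ratio of −0.25. Each value lay a little lower in RHCG cells, and the 2 chains kept nearly the same proportion: IFNAR1 over IFNAR2 was 1.15 in mock and 1.23 in RHCG cells. None of the 6 interferon receptor chains passed 2-fold, and 3 lay above 0 and 3 below. IFNGR2, the second chain of the interferon gamma receptor, was the most abundant at 20.0 and 19.8 RPKM, and its partner IFNGR1 was at 11.6 and 13.4 RPKM. IL10RB, which serves both interferon lambda and interleukin 10, was at 9.17 and 12.4 RPKM, and IFNLR1, the chain specific for interferon lambda, at 1.92 and 2.31 RPKM. IFNAR2, IL10RB, IFNAR1 and IFNGR2 lie next to each other in this order on chromosome 21, and their log2 ratios were −0.25, 0.39, −0.18 and −0.02. The 10 interferon genes on the list of ligands, IFNB1, IFNG and IFNL1 among them, were listed at 0 in both libraries.

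Of the kinases, JAK1 was 1.66-fold higher in RHCG cells (plain ratio of RPKM) and TYK2 was nearly level. JAK1, which serves all classes of interferon receptor and many cytokine receptors, was at 41.3 RPKM in mock and 68.7 RPKM in RHCG cells. Its log2 ratio was 0.72, and 7.37% of measured genes had a ratio as high or higher. About 3945 and 7649 reads stood behind these values, which gives the ratio an approximate 95% exact (Clopper-Pearson) interval of 1.60 to 1.73. Such intervals cover counting error only and hold no difference between cultures or preparations. TYK2 was at 28.9 and 27.2 RPKM, a log2 ratio of −0.08 that became 0.11 with the shift of its chromosomal neighbours (described below) subtracted. The proportion of JAK1 to TYK2, which no scaling of the libraries can alter, went from 1.43 to 2.52. JAK2 and JAK3 were listed at 0 in both libraries, so 2 of 4 Janus kinases were measured.

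STAT2 had the lowest log2 ratio of the 9 genes. STAT2, the subunit of ISGF3 that carries a strong activation domain, was at 25.8 RPKM in mock cells and 13.7 RPKM in RHCG cells, 1.89-fold lower. The log2 ratio was −0.87, just short of the 2-fold rule, and 4.71% of measured genes had a ratio as low or lower. About 1594 and 983 reads stood behind it, and the ratio of RHCG over mock was 0.529 with a counting interval of 0.488 to 0.573. Among the other STAT genes, STAT6, which serves interleukins 4 and 13, had a nearly equal difference, at 46.6 and 24.7 RPKM (log2 ratio −0.89). STAT3, which serves interleukin 6, was at 44.9 and 57.8 RPKM (0.36), and STAT5B at 15.1 and 13.9 RPKM (−0.10). STAT5A was at 1.25 and 1.42 RPKM, and STAT4 was listed at 0 in both. None of these passed 2-fold.

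IRF9, the DNA-binding subunit of ISGF3, was at 11.0 RPKM in mock and 11.5 RPKM in RHCG cells. Its log2 ratio was 0.06, and the counting interval of the ratio, 0.913 to 1.20, held 1. The proportion of STAT2 to IRF9 was 2.35 in mock and 1.19 in RHCG cells. These are proportions of transcripts, and protein and phosphorylation were not measured.

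Among the factors upstream of interferon, IRF3 was 1.53-fold lower in RHCG cells, though its log2 ratio of −0.60 was −0.14 with the neighbour shift subtracted. IRF3, the constitutive factor that TBK1 activates, was at 50.0 and 32.6 RPKM, and 10.8% of measured genes had a ratio as low or lower. The ratio of RHCG over mock was 0.652, with a counting interval of 0.605 to 0.702. IRF7, which amplifies the interferon response once induced, was at 2.06 and 1.48 RPKM, a log2 ratio of −0.30 (0.14 with the neighbour shift subtracted). It rested on about 80 and 67 reads, and its counting interval of 0.512 to 1.01 held 1. The proportion of IRF3 to IRF7 was 24.3 in mock and 22.0 in RHCG cells.

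IRF1 was at 11.3 RPKM in mock and 10.1 RPKM in RHCG cells, a log2 ratio of −0.15 (0.26 with the neighbour shift subtracted). IRF2, which antagonises IRF1 at shared sites, was at 16.5 and 11.4 RPKM (log2 ratio −0.49). IRF5 was listed at 0 in mock cells and at 2.52 RPKM in RHCG cells, so no ratio is given. IRF4 and IRF8, known from blood cells, were listed at 0 in both. Of 3 proteins that bind IRF2, none passed 2-fold, and the 2 most abundant were IRF2BPL, at 29.9 and 31.3 RPKM, and IRF2BP2, at 28.5 and 29.4 RPKM. The third, IRF2BP1, was at 21.4 and 13.8 RPKM (log2 ratio −0.59).

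**Figure D2:**
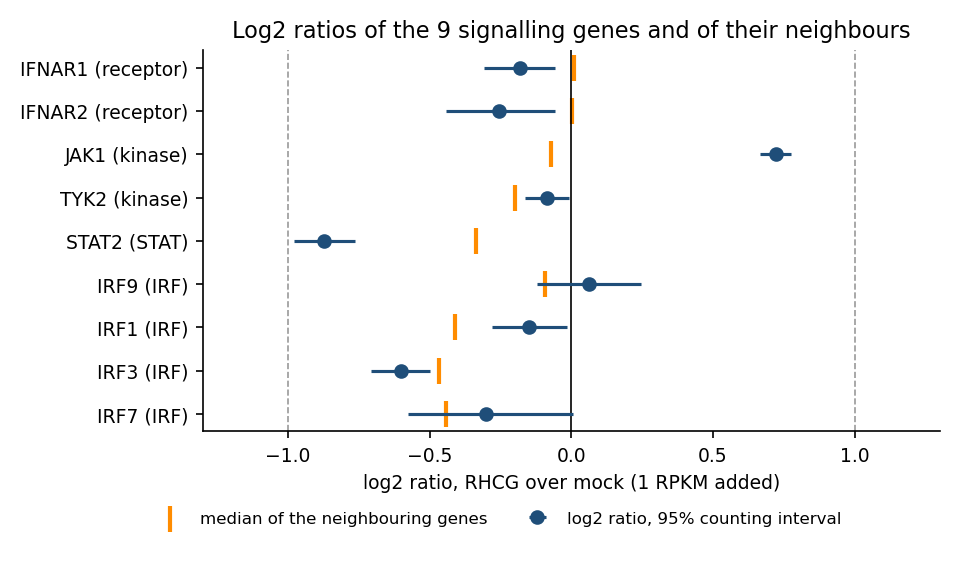
Log2 ratio of RHCG over mock (1 RPKM added) for each of the 9 genes, with bars for the approximate 95% counting interval, and an upright tick at the median of the neighbouring genes. Dashed lines mark 2-fold. JAK1 (0.72) lay far above its tick (−0.07), STAT2 (−0.87) lay below its own (−0.34), and IRF3 (−0.60) lay close to its own (−0.47).

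Each gene was also set beside the measured protein-coding genes around it, up to 25 on either side, in the order of the RefSeq annotation of GRCh38. Around JAK1 on chromosome 1 the median was −0.07, and 1 of 50 neighbours had a ratio as high as JAK1. The measured genes next to it were CACHD1 (−0.93) and RAVER2 (−0.33) on one side and AK4 (−0.77) on the other, followed by DNAJC6, which was listed at 0 in mock cells and at 1.48 RPKM in RHCG cells. JAK1 thus stood opposite to the 3 adjacent genes that were listed in both libraries.

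STAT2 lay in a stretch of chromosome 12 where 40 of 50 neighbours were below 0 and the median was −0.34. The adjacent genes were CNPY2 (−0.49), PAN2 (−0.66), TIMELESS (−1.02) and SPRYD4 (−0.68), all below 0 like STAT2, and 10 of the 50 had a ratio as low as STAT2. STAT6 was itself among these 50 neighbours, so the windows of STAT2 and STAT6 overlap. The neighbour median of STAT6 was −0.43. With the neighbour median subtracted, STAT2 was at −0.53 and STAT6 at −0.46.

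IRF3 lay on chromosome 19 among neighbours with a median of −0.47, 43 of 50 of them below 0, and 19 of the 50 had a ratio as low as IRF3. The adjacent genes were RRAS (0.06), SCAF1 (−0.46), BCL2L12 (−0.38) and PRMT1 (−0.01). With the neighbour median subtracted IRF3 was at −0.14. IRF1 on chromosome 5, IRF7 on chromosome 11 and TYK2 on chromosome 19 also had neighbours below 0, with medians of −0.41, −0.44 and −0.20. Subtracting them turned the sign of all 3 genes, to 0.26, 0.14 and 0.11. IRF9 on chromosome 14 went from 0.06 to 0.16, and IFNAR1 and IFNAR2, whose neighbours had medians of 0.01 and 0.00, came to −0.19 and −0.26.

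**Figure D3:**
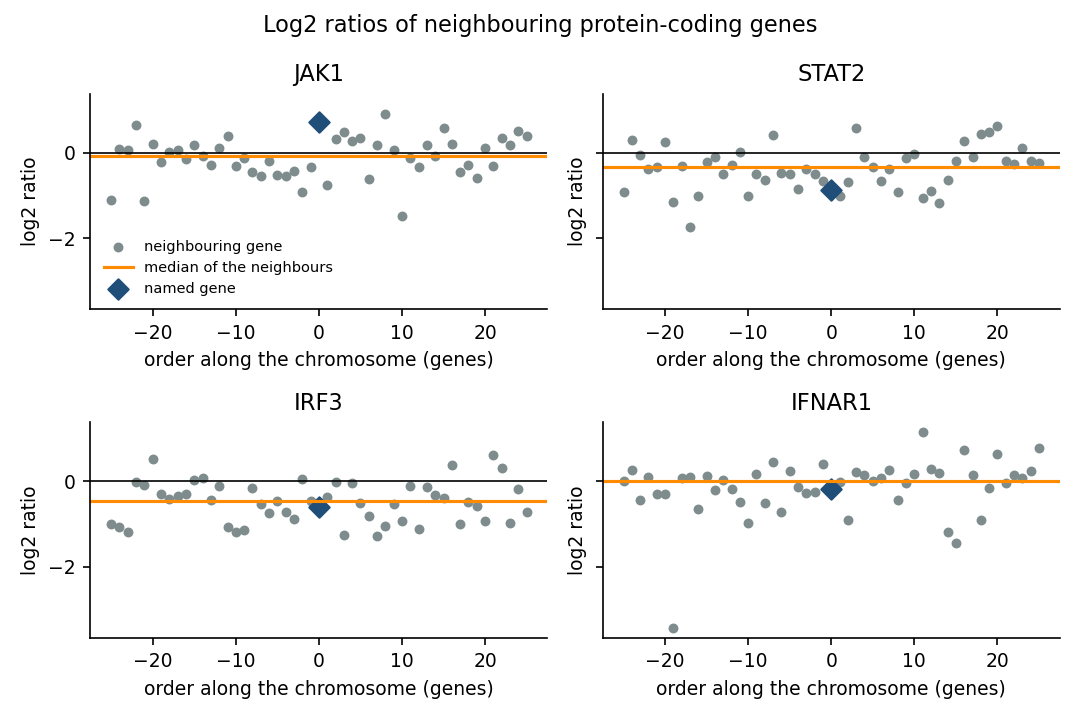
Log2 ratio of RHCG over mock for up to 25 protein-coding genes on either side of JAK1, STAT2, IRF3 and IFNAR1, in their order along the chromosome (genes, not bases). The diamond is the named gene and the thick line the median of its neighbours, which was −0.07 at JAK1, −0.34 at STAT2, −0.47 at IRF3 and 0.01 at IFNAR1.

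The genes around this pathway were read from lists of its other parts. Of 14 nucleic acid sensors and their kinases, 13 were measured, 1 was lower and 0 were higher, against 3.30% and 2.74% over all measured genes, with a median of −0.26 that was 0.31 when a mean of at least 5 RPKM was required. The lower gene was STING1, the adaptor that leads from the DNA sensor cGAS to IRF3. It was at 61.9 RPKM in mock and 24.7 RPKM in RHCG cells, a log2 ratio of −1.29 with a counting interval of the plain ratio from 0.369 to 0.431. Its neighbours on chromosome 5 had a median of −0.43, and with that subtracted STING1 was at −0.86, no longer past 2-fold.

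Of 13 inhibitors of the pathway, 11 were measured and none passed 2-fold, with a median of −0.19. The 2 most abundant by the mean of both libraries were the phosphatases PTPN1, which acts on TYK2, at 37.1 and 30.6 RPKM, and PTPN11 at 22.9 and 34.0 RPKM. In mock cells alone PTPN6 (26.1 RPKM) and SOCS3 (25.6 RPKM) stood above PTPN11. Of 13 other receptor chains that use JAK1 or TYK2, 9 were measured and none was called higher or lower. Their median was 0.19, and 0.65 when a mean of at least 5 RPKM was required. The 2 most abundant were the interleukin 4 and 13 receptor chains IL4R, at 34.9 and 40.0 RPKM, and IL13RA1, at 8.49 and 13.9 RPKM. OSMR was at 3.35 RPKM in mock and 6.78 RPKM in RHCG cells, a plain ratio of 2.03. With 1 RPKM added its log2 ratio was 0.84, so it was not called.

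Of 35 interferon-stimulated genes, the targets of ISGF3, 25 were measured, 9 were lower and 0 higher, against 3.30% lower over all measured genes. Of the 25, 22 lay below 0, and their median was −0.72. The rest, 10 genes with MX1, MX2 and RSAD2 among them, were listed at 0 in both libraries. OASL, an oligoadenylate synthetase-like antiviral protein, was at 41.0 RPKM in mock and 1.88 in RHCG cells. IFI44 was at 13.4 RPKM in mock and listed at 0 in RHCG cells, OAS1 was at 16.8 and 3.51 RPKM, and IFIT3 at 9.68 and 1.93 RPKM. IFI44 and IFIT1, both counted as lower, were listed at 0 in RHCG cells, and their ratios rest on the floor of 1 RPKM. Of the 19 genes listed above 0 in both libraries 7 were lower, and their median was −0.78. With the neighbour median subtracted the list had 9 lower genes, with a median of −0.71. These were not all the same genes: OAS3 (−0.999) dropped out and SAMD9 (−1.06) came in. This list was drawn up with the lower interferon-stimulated genes of these libraries already known, so it is no independent evidence of their direction.

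Of 15 targets of IRF1, 10 were measured, and all 10 lay below 0, with a median of −0.34, beside 6489 of 12857 below 0 over all measured genes. The 10 are not separate regions: GBP1, GBP2 and GBP3 share a stretch of chromosome 1, and PSMB8, PSMB9, TAP1 and TAP2 one of chromosome 6. This list too was chosen with earlier results of these data known. TAP2, a peptide transporter subunit, was level at 15.6 and 15.5 RPKM and lay at 0.12 with the neighbour median subtracted, and GBP1 and PSMB9 were listed at 0 in RHCG cells, so their values rest on the floor of 1 RPKM. The list had 1 lower gene of 10, against 3.30% over all measured genes, BTN3A1, a butyrophilin that gamma delta T cells recognise, at 7.01 and 2.54 RPKM. Its neighbours had a median of −0.78, and with that subtracted its log2 ratio was −0.39. Whether the lists differ from each other or from the 9 signalling genes was not tested.

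**Figure D4:**
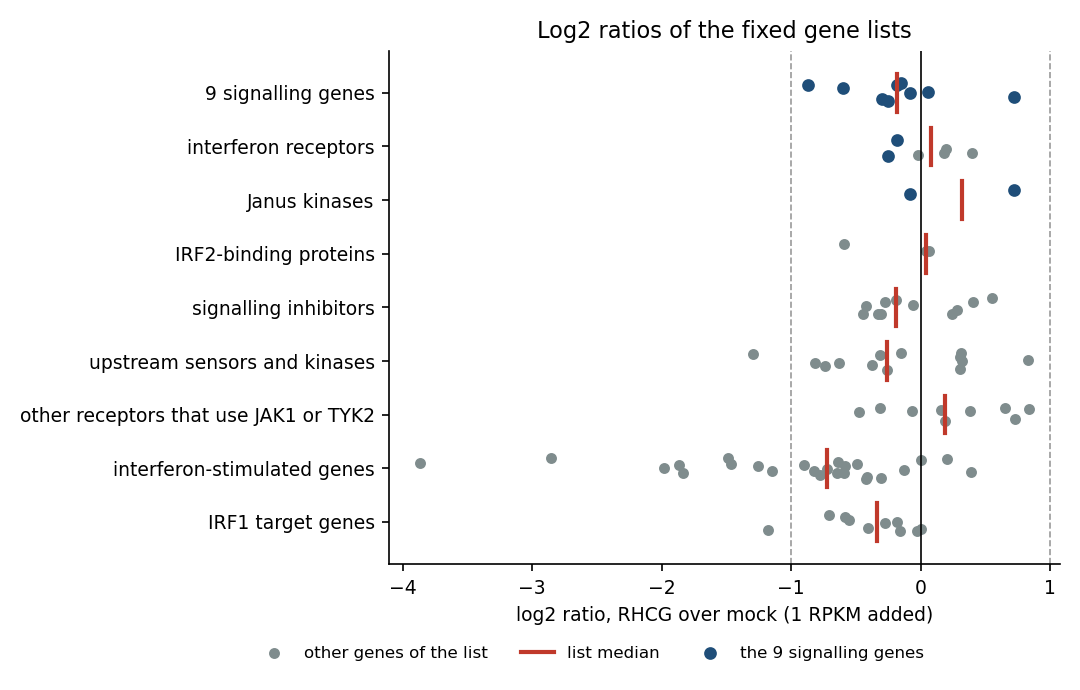
Log2 ratio of RHCG over mock (1 RPKM added) for the 9 signalling genes and every measured gene of 8 lists, 1 point per gene, with an upright bar at the list median and dashed lines at 2-fold. The 9 signalling genes lie between −0.87 and 0.72, and points of the interferon-stimulated list reach −3.87 (OASL).

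Some of these genes share transcribed bases with others, and the sources used here do not say whether strand was used in counting. In the GENCODE annotation 44.2% of the exonic bases of IFNAR2 and 48.4% of those of IRF9 also belong to another protein-coding gene model on the same strand. IRF3 shares 19.3% of its exonic bases with BCL2L12 on the opposite strand, and IRF1 shares 22.0% with a non-coding transcript on the opposite strand. On the opposite strand, IFNAR2 also shares 39.1% with the antisense transcript IL10RB-DT, and IRF1 shares 6.01% with another protein-coding gene model. The values of these 4 genes are uncertain for that reason. IFNAR1, TYK2, STAT2 and IRF7 share no exonic base with another gene in that annotation, and JAK1 shares 4 bases.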

How the data were processed

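The 2 libraries, mock and RHCG, were made with the Ion Total RNA-Seq kit, per the labels' protocols. The submitters' processing notes name hg19 and bedtools 2.25.0, with no role stated. Which aligner and which counting method were used is not given in the sources used here. Each library's deposited table, made by the authors, stands under a header of RPKM whose values are log2 of RPKM with no pseudocount, none below 0. The scale was read from small RNA genes. For each library the constant was chosen on whose multiples the largest share of their unlogged values times length fell. How large that share was is not reported here. The constant also gave the approximate depth, and approximate reads used the longest RefSeq-matched GENCODE transcript (97.2% of measured genes).

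The 40448 rows, 112 of them copies, were summed to 40392 genes, and 38047 matched a RefSeq symbol. Genes listed at 0 were set to 1 RPKM, and 1 RPKM was added before the ratio. Genes had to reach a mean of 1 RPKM, which with that floor holds for every gene listed above 0 in either library, all 9 signalling genes among them. Lists and genes were chosen with earlier results of these data known. Named were all 9, every measured gene of the receptor and JAK lists, genes of the STAT and IRF lists (some are not reported here), called genes of the other lists (at most 4 of the target lists, or the 2 most abundant where none was called), and adjacent genes of JAK1, STAT2, IRF3 and the chromosome 21 receptors. A few other genes, such as OSMR, are named for a single point. Alternatives were those of the closing section. Promoters came from RefSeq (GRCh38.p14), so coordinates are not those of the authors' build. Tables were handled with pandas 2.3.3 and numpy 2.4.6 in Python 3.11.15, intervals came from scipy 1.17.1, trends from statsmodels 0.14.6 and plots from matplotlib 3.10.9.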

Additional observations from a re-analysis of the deposited data

How the results depend on the processing

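No paired analysis was possible because each group held a single library, and none could be left out. With a ratio of 1.5 in place of 2, 1 of the 9 genes was higher (JAK1) and 2 were lower (STAT2 and IRF3), beside 17 of 25 interferon-stimulated genes lower, and 1447 higher and 1481 lower of all genes. In the other settings none of the 9 was called in either direction, but IRF7 drops out where a mean of at least 5 RPKM is required. Of all genes, 352 were higher and 424 lower. A pseudocount of 0.1 RPKM gave 533 and 673, and a floor of 0 RPKM for listings at 0 gave 686 and 1004. No filter, a mean of at least 5 RPKM, median-of-ratios scaling, trimmed mean scaling, the row with the highest total, and removal of the neighbour shift or of a trend with GC content and length gave 262 to 352 higher and 296 to 436 lower genes. The median of the 9 genes, −0.18, was 0.11 with the neighbour shift removed and between −0.21 and −0.17 in the others. Both scalings moved all genes by 0.01 on the log2 scale. JAK1 ranged from 0.66 to 0.79, STAT2 from −0.91 to −0.53 and IRF3 from −0.62 to −0.14 over all settings. Among named genes 33 of 264 values moved by more than counting error, as did 8 of 90 list medians. Depth limits IRF7 most, at about 80 and 67 reads.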
